A study of Oryza sativa with 8 samples.

Results

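The rice homeobox genes examined here carry a symbol or synonym of the form HOX, ROC, HOS or OSH followed by a number, with or without the prefix Os. Of 46 genes with such a name, 31 had a probe lying in no other gene of the RefSeq annotation, each of them exactly 1 probe, out of 14661 genes with such a probe in all. By textbook knowledge of the families, the 31 genes fall into 9 HD-Zip I, 6 HD-Zip II, 4 HD-Zip III, 6 HD-Zip IV (the ROC genes), 4 KNOX class I and 2 KNOX class II genes. The remaining 15 genes, among them HOX12 and the meristem gene OSH1, were not analysed here.

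RNA was measured on 8 arrays, with 2 biological replicates for each of 4 rice lines. The maintainer line Meixiang B (MB) is male-fertile. The alloplasmic cytoplasmic male sterile (CMS) lines D62-A/MB, ZS97-A/MB and XQZ-A/MB hold cytoplasm of the D, WA and DA types in a nuclear background of MB obtained by repeated backcrossing. By the marker survey in the study's methods the replacement of the donor nuclear genome was incomplete and differed between the lines, and whether any homeobox locus is still of donor origin is not known here. Material was taken at the uninucleate microspore stage from field-grown plants. The sample labels call it young panicle and the methods of the study call it anther, and which of them was hybridised is not known here. Each CMS type is represented by 1 line, plant age is not given, and the 2 MB arrays serve every comparison with MB. Published fold changes for D62-A/MB and XQZ-A/MB match the arrays bearing the opposite name, so the order of any difference between D62-A/MB and XQZ-A/MB is open to exchanged labels. The mean change of the 3 CMS lines against MB (the CMS average) is not affected by that exchange.

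Homeobox proteins bind DNA through the homeodomain and switch other genes on or off. In HD-Zip proteins a leucine zipper beside the homeodomain pairs the protein with a partner. HD-Zip I genes are known for responses to water deficit and abscisic acid and for shaping panicle and stem, HD-Zip II proteins for transcriptional repression, HD-Zip III for meristems, vascular tissue and the upper side of leaves, and HD-Zip IV for the epidermis and its cuticle. Class I KNOX proteins keep shoot meristem cells undifferentiated, partly by raising cytokinin and lowering gibberellin, whereas class II KNOX genes are expressed more widely.

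The deposited values are linear signal intensities. Array medians lay between 7.65 and 8.15 in replicate 1 and between 19.2 and 20.6 in replicate 2, so values were compared within a replicate number wherever possible. Intensities below 16 were raised to 16 (the floor) and transformed to log2. The 20416 probes of higher mean intensity over all 8 arrays, MB included, were fitted by limma. The fit had a coefficient for each line and a term for the replicate number. A probe that is low in the CMS lines can therefore be tested because it is high in MB. A gene was called at an adjusted p under 0.01 with at least a 2-fold change. A change is given on the log2 scale as CMS minus MB with its standard error (SE). Of the 31 members, 27 were tested. HOX20, HOX3, OSH15 and OSH6 were too dim, with no array above 22.0. Among the tested members, 19 exceeded 16 on every array, whereas HOX4, ROC3 and OSH3 lay at or below 16 on all replicate 1 arrays, so their changes rest on replicate 2 alone. Replicate 2 exceeded replicate 1 in 24 of 27 members, by a median of 0.84 log2 units beside 0.63 over all tested probes.

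HOX14 and HOX24, both HD-Zip I genes, were the members called in the CMS average, and both fell. HOX14 is related to the barley spike gene VRS1 and to rice HOX12, a gene of panicle exsertion. HOX24 is known for responses to abscisic acid and drought. The call rule marked 1.43% of all tested probes as lower and 0.372% as higher in this comparison, beside 2 lower and 0 higher of the 27 members.

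The intensity of HOX14 was 36.8 and 48.4 in replicates 1 and 2 of MB, 9.12 and 15.6 in XQZ-A/MB, 10.5 and 19.8 in D62-A/MB, and 13.2 and 16.7 in ZS97-A/MB. Every CMS array lay below both MB arrays, and 4 of the 6 CMS arrays lay at or below the floor. The change of HOX14 in the CMS average was -1.34 (SE 0.12, adjusted p = 0.00253 by limma), a value limited by the floor in those 4 arrays, and -1.56 with no floor. Within the replicate numbers the mean change was -1.20 in replicate 1, where all 3 CMS arrays were at the floor, and -1.47 in replicate 2. By line the change was -1.25 for D62-A/MB (SE 0.15, adjusted p = 0.0140), -1.40 for XQZ-A/MB (SE 0.15, adjusted p = 0.00368) and -1.37 for ZS97-A/MB (SE 0.15, adjusted p = 0.00573). HOX14 was therefore called in ZS97-A/MB and XQZ-A/MB and missed the threshold in D62-A/MB.

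HOX24 had an intensity of 46.1 and 98.7 in MB, 23.3 and 45.4 in XQZ-A/MB, 25.2 and 38.8 in D62-A/MB, and 22.2 and 35.7 in ZS97-A/MB. None of its 6 CMS arrays reached the lower MB array, and no array was at the floor. In the CMS average HOX24 fell with a change of -1.14 (SE 0.13, adjusted p = 0.00465), with -0.97 in replicate 1 and -1.31 in replicate 2. The lines gave -1.11 for D62-A/MB (adjusted p = 0.0220), -1.05 for XQZ-A/MB (adjusted p = 0.0121) and -1.26 for ZS97-A/MB (adjusted p = 0.00835), each with an SE of 0.16. It was called in ZS97-A/MB only, and the difference of ZS97-A/MB from the other CMS lines was -0.18 (95% interval -0.51 to 0.15, adjusted p = 0.490).

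The calls of both genes depended on the fit. Without the replicate term their changes were the same, but no probe of the whole table was called by limma in the CMS average. The adjusted p was 0.366 for HOX14 and 0.863 for HOX24, and 2 of 27 members had an unadjusted p under 0.05, beside 7 with the term. With the term 26.6% of all tested probes had such a p, and the share without it is not given here. With 1 array left out at a time the change of HOX14 stayed between -1.47 and -1.20 and that of HOX24 between -1.31 and -0.97. Both calls were lost without replicate 2 of MB, without either array of XQZ-A/MB, and without either array of ZS97-A/MB. In those fits few or no probes of the whole table were called.

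In bulk tissue, fewer cells of a type and less RNA per cell cannot be told apart, and 2 markers of anther and stamen fell in the CMS average as HOX14 and HOX24 did. Of 7 tapetum and anther markers with a probe, 4 were tested. An unadjusted p under 0.05 by limma was reached by 3 of them, beside 26.6% of all tested probes. The 1 called was C6, which encodes a lipid transfer protein made in the tapetum, with a change of -4.20 (SE 0.29, adjusted p = 0.00147). RAFTIN1 and TDR had changes of -0.92 and -0.82 (adjusted p = 0.163 and 0.169 by limma). Each exceeded 16 on only 2 arrays, none of them of replicate 1. In replicate 2 of MB they were at 59.8 and 53.0, and their CMS arrays lay between 3.11 and 19.2. They were therefore tested because of that MB array. GAMYB, the remaining tested marker, went the other way with a change of 0.12 (adjusted p = 0.634). The summed intensity of the 7 markers was 623 to 2410 in MB and 203 to 468 in the CMS arrays. C6 alone was at 415 and 2060 in replicates 1 and 2 of MB, so the fall of this sum rests largely on that gene. UDT1, a defining tapetum regulator, was at or below 16 on all arrays. Of 4 tested stamen and lodicule identity genes, 2 of which share the name MADS2, 3 had an unadjusted p under 0.05, beside 26.6% of all tested probes. MADS16 was called (-1.07, SE 0.13, adjusted p = 0.0063 by limma). MADS4, another of the 3, was at 17.4 and 36.2 in MB. Its CMS arrays lay between 3.6 and 14.9, all under the floor, so it was tested because of MB. The summed list intensity was 1280 to 1950 in MB and 800 to 1670 in the CMS arrays. Within the replicate numbers the tapetum sum and the stamen sum were below MB in all 6 CMS arrays, as were those of the carpel, meiosis and green tissue lists, whereas the lemma and palea sum was below MB in 4 of 6. Of 4 tested lemma and palea genes 0 were called by limma and 1 had an unadjusted p under 0.05. The carpel gene DL had a change of -0.73 (SE 0.11, adjusted p = 0.0119) and the green tissue gene rbcS of -0.58 (SE 0.10, adjusted p = 0.0195), and neither was called. Of 4 meiosis genes with a probe, PAIR1 and PAIR3 were at or below 16 on all arrays, and 0 of the 2 tested had an unadjusted p under 0.05. The part of these tissues in the values of HOX14 and HOX24 was not tested.

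**Figure D1:**
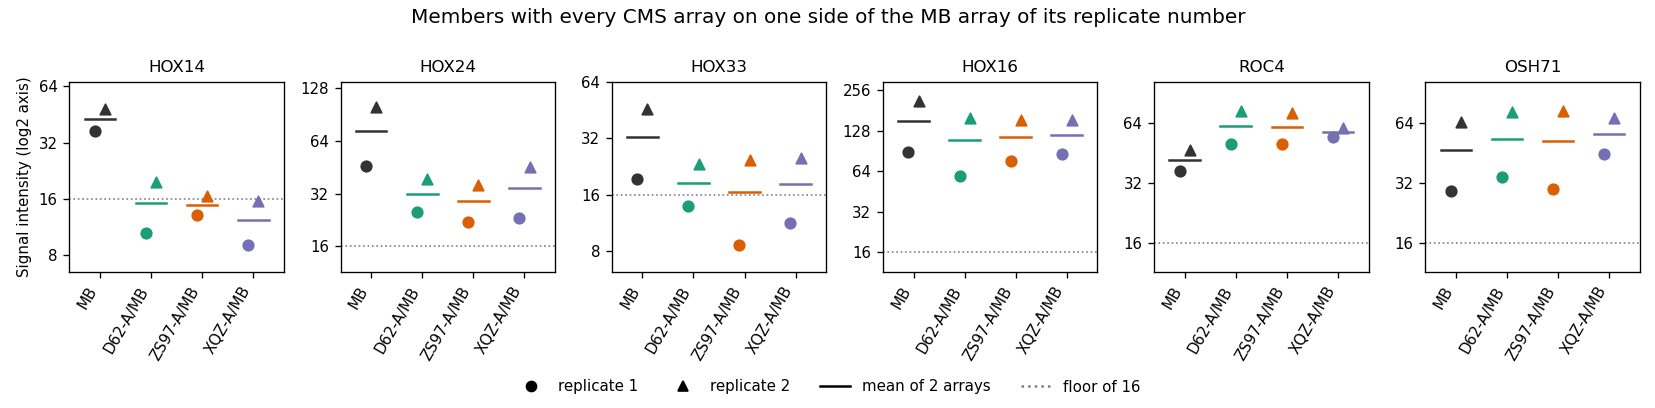
Signal intensity on a log2 axis in the 2 arrays (circle, replicate 1; triangle, replicate 2) of MB and the 3 CMS lines for the 6 members whose CMS arrays all lie on 1 side of the MB array of the same replicate number; bars are the mean of 2 arrays and the dotted line is the floor of 16. HOX14 and HOX24 lie below both MB arrays in every CMS array and ROC4 above both, whereas HOX33, HOX16 and OSH71 overlap MB once replicate numbers are ignored.

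The other 6 tested HD-Zip I genes were not called. HOX16 had an intensity of 88.9 and 211 in MB, 86.4 and 153 in XQZ-A/MB, 58.8 and 160.2 in D62-A/MB, and 75.8 and 153 in ZS97-A/MB. All 6 CMS arrays were below the MB array of their number, in XQZ-A/MB replicate 1 by 0.04 log2 units, and the change in the CMS average was -0.37 (SE 0.14, adjusted p = 0.158). HOX22, a close relative of HOX24 with a known role in drought responses, had a change of -0.02 in the CMS average (95% interval -0.36 to 0.33). HOX6 was at 116 and 130.0 in MB, 139 and 107 in XQZ-A/MB, 162 and 121 in D62-A/MB, and 162 and 190.0 in ZS97-A/MB, so both ZS97-A/MB arrays and no complete pair of another CMS line exceeded MB. Its change was 0.23 in the CMS average (95% interval -0.15 to 0.62). HOX13 went in opposite directions in the replicate numbers, 0.39 in replicate 1 and -0.51 in replicate 2. HOX4, a gene of gibberellin responses and stem length, and HOX5 had changes of -0.21 and -0.02. In this class 7 of 8 tested members lay below MB in the CMS average, with a median of -0.13, beside 48.7% of all tested probes and a median of 0.01.

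Among the HD-Zip II genes 0 of 5 tested members were called by limma. An unadjusted p under 0.05 was reached by 1, HOX17, and by 26.6% of all tested probes. The intensity of HOX17 was 32.3 and 67.7 in MB, 16.1 and 49.5 in XQZ-A/MB, 21.2 and 78.9 in D62-A/MB, and 17.6 and 49.3 in ZS97-A/MB. Replicate 2 of D62-A/MB was above its MB array and the other 5 CMS arrays were below theirs. HOX17 had a change of -0.53 in the CMS average (SE 0.16, adjusted p = 0.0888), with -0.83 in replicate 1 and -0.23 in replicate 2. HOX2 had an intensity of 248 and 267 in MB, 162 and 228 in XQZ-A/MB, 170.3 and 443 in D62-A/MB, and 145 and 166 in ZS97-A/MB. Here too replicate 2 of D62-A/MB was the 1 CMS array above MB, and the change was -0.35 (SE 0.24, adjusted p = 0.423), with the largest SE of all members. It was -0.64 in replicate 1 and -0.06 in replicate 2, the latter being its value without MB replicate 1. HOX28, whose gene neighbours HOX2, had a change of 0.10 with 4 arrays at the floor. HOX1, a transcriptional repressor of provascular tissue, had a change of 0.21 (SE 0.13, adjusted p = 0.382), and its replicate 2 arrays exceeded those of replicate 1 by a mean of 1.93 log2 units. HOX7 had a change of 0.29 (SE 0.21), with -0.14 in replicate 1 and 0.71 in replicate 2.

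All 4 HD-Zip III genes, the OSHB genes of meristem and leaf polarity, lay below MB in the CMS average, with a median change of -0.31. By limma 0 were called and 2 had an unadjusted p under 0.05. Over all tested probes 48.7% lay below MB and 26.6% had such a p. HOX33, which is also known for delaying leaf senescence, had an intensity of 19.3 and 45.7 in MB, 11.3 and 25.2 in XQZ-A/MB, 13.9 and 23.2 in D62-A/MB, and 8.65 and 24.4 in ZS97-A/MB. The CMS arrays of replicate 1 were all at the floor, and those of replicate 2 lay above the replicate 1 array of MB. The change of HOX33 was -0.60 in the CMS average (SE 0.16, adjusted p = 0.0591), with -0.27 to the floor in replicate 1 and -0.92 in replicate 2. It was -0.82 with no floor. HOX9 was measured at 64.7 and 49.9 in MB, 32.9 and 35.0 in XQZ-A/MB, 49.5 and 61.4 in D62-A/MB, and 38.8 and 36.0 in ZS97-A/MB. The arrays of ZS97-A/MB and XQZ-A/MB lay below both MB arrays, and those of D62-A/MB overlapped MB. Against MB the change of HOX9 was -0.04 for D62-A/MB (adjusted p = 0.938), -0.75 for XQZ-A/MB (adjusted p = 0.0575) and -0.61 for ZS97-A/MB (adjusted p = 0.0737), each with an SE of 0.18. HOX32 and HOX10 had changes of -0.15 (95% interval -0.44 to 0.15) and -0.14 (95% interval -0.42 to 0.14) in the CMS average. HOX32, whose probe was the brightest of this class, was at 52.7 and 89.2 in MB, 41.6 and 72.8 in XQZ-A/MB, 56.4 and 98.8 in D62-A/MB, and 38.5 and 87.2 in ZS97-A/MB, so it exceeded MB of the same number in D62-A/MB alone.

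Among the HD-Zip IV genes 5 of 6 lay above MB in the CMS average, with a median of 0.12, and 0 were called. Over all tested probes 48.7% lay below MB, with a median of 0.01. By line, 1 of the 6 genes lay below MB in D62-A/MB (median 0.255), 2 in ZS97-A/MB (median 0.13) and 3 in XQZ-A/MB (median -0.01). ROC4, an activator of cuticular wax formation, had an intensity of 36.8 and 46.7 in MB, 54.7 and 60.1 in XQZ-A/MB, 50.0 and 73.6 in D62-A/MB, and 50.2 and 71.9 in ZS97-A/MB. Every CMS array exceeded both MB arrays, a pattern held by 6.05% of all tested probes and by 1 of 27 members. The change of ROC4 was 0.52 in the CMS average (SE 0.12, adjusted p = 0.0435), 1.43-fold and so below the 2-fold limit, with 0.49 in replicate 1 and 0.55 in replicate 2. By line it was 0.55 for D62-A/MB, 0.47 for XQZ-A/MB and 0.53 for ZS97-A/MB, each with an SE of 0.15 (adjusted p = 0.0975, 0.123 and 0.0631). ROC5, which limits the bulliform cells that roll the leaf, had a change of 0.20 (95% interval -0.16 to 0.57), with 1 MB array at the floor. The change was 0.47 with no floor and 0.43 after quantile normalization. ROC2, the brightest probe of the class, was at 128 and 287 in MB and between 147 and 308 in the CMS arrays, with a change of 0.12 (95% interval -0.21 to 0.44). ROC1, a marker of the protoderm, ROC7 and ROC3 had changes of 0.06, 0.12 and -0.17.

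The 4 tested KNOX genes had changes between -0.22 and 0.22 in the CMS average, and 0 were called by limma. An unadjusted p under 0.05 was reached by 0 of them and by 26.6% of all tested probes. OSH71, a class I gene, had an intensity of 29.2 and 64.6 in MB, 44.7 and 68.2 in XQZ-A/MB, 34.2 and 72.6 in D62-A/MB, and 29.9 and 73.6 in ZS97-A/MB. All 6 CMS arrays were above MB of the same number, in ZS97-A/MB replicate 1 by 0.04 log2 units, and the change was 0.22 (SE 0.15, adjusted p = 0.428). OSH3, a close neighbour of OSH1 in the genome, was measured above the floor in replicate 2 only, at 31.1 in MB and 23.7, 23.2 and 22.1 in D62-A/MB, ZS97-A/MB and XQZ-A/MB. OSH15, a gene of internode growth, was at 21.2 and 12.1 in MB and between 9.73 and 19.1 in the CMS arrays, too dim to be tested. The class II genes HOS66 and HOS59 had changes of -0.20 (95% interval -0.60 to 0.21) and 0.03 (95% interval -0.25 to 0.32) in the CMS average.

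**Figure D2:**
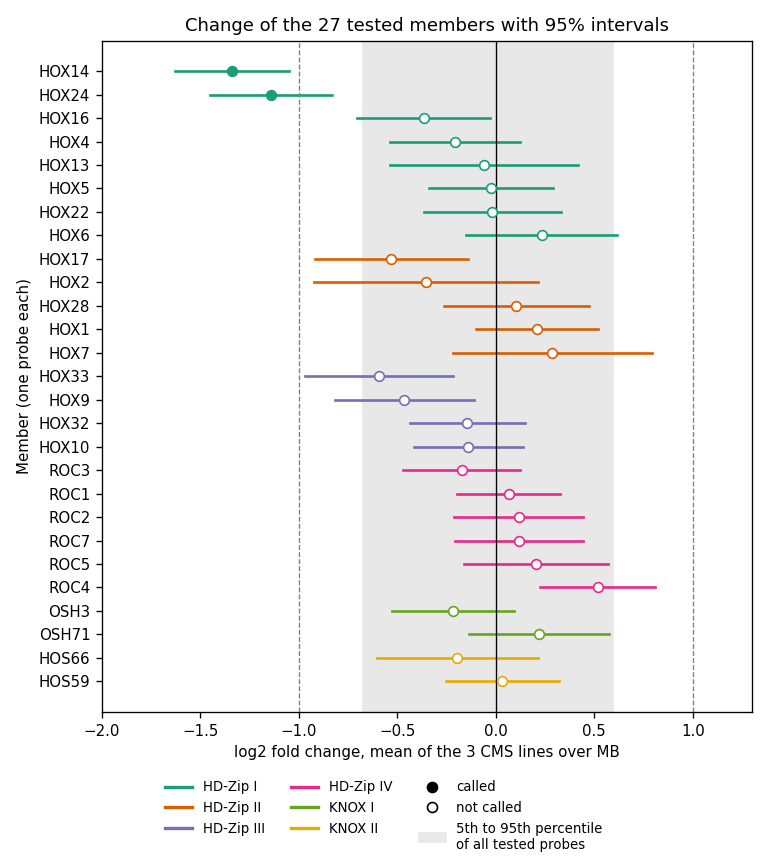
Log2 fold change of the mean of the 3 CMS lines over MB for the 27 tested members, with 95% intervals from limma, coloured by class; filled points are called and dashed lines mark 2-fold. HOX14 (-1.34) and HOX24 (-1.14) lie outside the grey band that holds the 5th to 95th percentile of all tested probes (-0.67 to 0.59), and the other 25 members lie inside it.

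Over all classes, 16 of 27 members (59.3%) lay below MB in the CMS average, with a median of -0.06, beside 48.7% of all tested probes and a median of 0.01. An unadjusted p under 0.05 was reached by 7 of 27 members (25.9%) and by 26.6% of all tested probes, a share of the family close to that of the array as a whole. For 25 members, all but HOX14 and HOX24, the 95% interval of the change lay within 2-fold in both directions, as it did for 88.3% of all tested probes. Values at the floor draw a change towards 0, so these intervals can be read only for members above 16 on all arrays. Of those 19 members, 18 had intervals within 2-fold and HOX24 did not, and smaller changes lie inside the intervals.

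Counted by array, 4 members (HOX14, HOX24, HOX16 and HOX33) were below the MB array of the same number in all 6 CMS arrays, 14.8% beside 11.0% of all tested probes. OSH71 and ROC4 were above it in all 6, 7.41% beside 13.3% of all tested probes. Below both MB arrays in all 6 CMS arrays were HOX14 and HOX24, 7.41% of the members beside 3.78% of all tested probes. The replicate numbers went in opposite directions in 9 of 27 members (33.3%) and in 24.3% of all tested probes. Of the rest, 11 members were below MB in both numbers, 4 above MB in both, and 3 were at the floor in 1 of them. Among the 20416 tested probes, 4708 were equal to MB at the floor in a replicate number. Such probes cannot go in opposite directions, so the shares of members and of probes are not directly comparable.

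**Figure D3:**
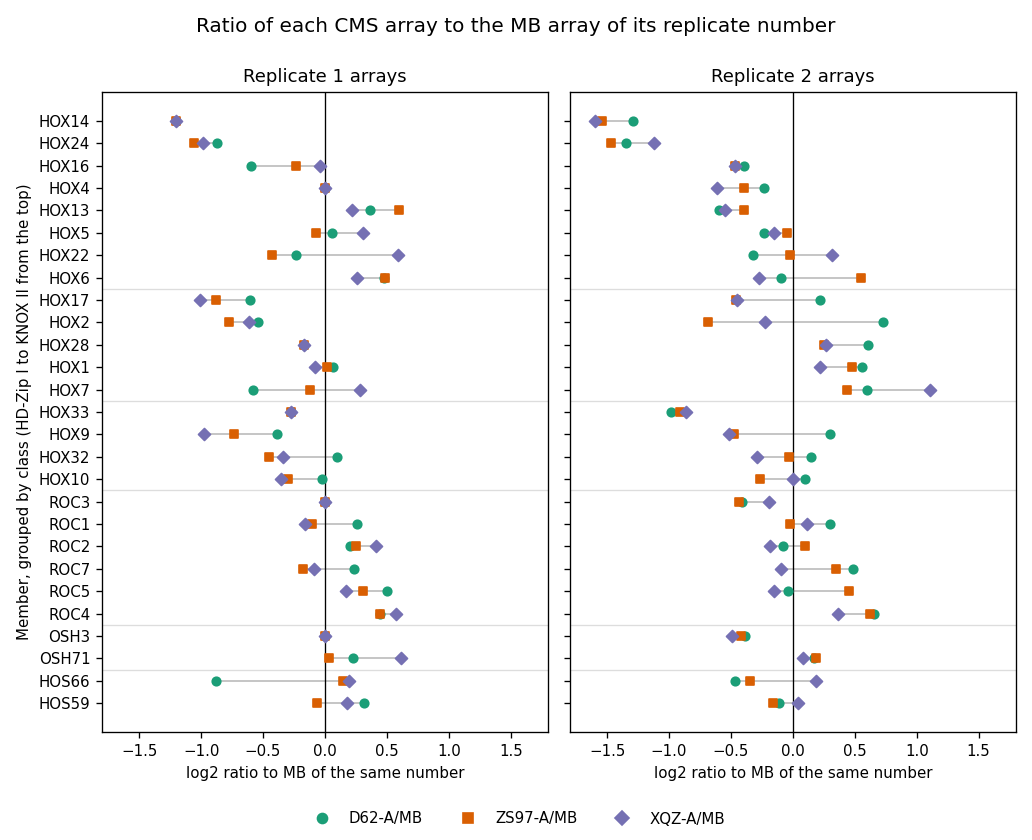
Log2 ratio of each CMS array to the MB array of the same replicate number, floored at 16, for the 27 tested members by class, with replicate 1 on the left and replicate 2 on the right; a grey line joins the 3 CMS lines. HOX14 and HOX24 lie at or below -0.87 in both panels, whereas HOX13 and HOX28 lie on opposite sides of 0 in the 2 panels.

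In D62-A/MB 0 of 27 members were called by limma, with 6 (22.2%) at an unadjusted p under 0.05 beside 20.7% of all tested probes, of which 0.0294% were called lower and 0.0% higher. In ZS97-A/MB the 2 members called lower, HOX14 and HOX24, stood beside 0.779% of all tested probes, and 0 members called higher beside 0.852%. In XQZ-A/MB HOX14 was called lower, beside 1.75% of all tested probes, and 0 members were called higher, beside 0.309%.

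Between the CMS lines 0 members were called, and 0.0% of all tested probes were called in D62-A/MB against XQZ-A/MB and in ZS97-A/MB against the other CMS lines averaged. HOX14 differed between D62-A/MB and XQZ-A/MB by 0.16 (95% interval -0.20 to 0.51) and HOX24 by -0.06 (95% interval -0.44 to 0.32). Among the arrays of these lines only replicate 2 of D62-A/MB exceeded 16 for HOX14. Its difference is therefore limited by the floor, and it was 0.26 with no floor. An unadjusted p under 0.05 in this comparison was reached by 7 of 27 members (25.9%), and by 13.6% of all tested probes. None of the 7 passed the adjustment.

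HOS66 was the member that differed most between D62-A/MB and XQZ-A/MB. The intensity of this class II KNOX gene was 155 and 244 in MB, 178 and 277 in XQZ-A/MB, 84.3 and 176 in D62-A/MB, and 172 and 192 in ZS97-A/MB. D62-A/MB was the lowest and XQZ-A/MB the highest line in each replicate number. The difference, D62-A/MB minus XQZ-A/MB, was -0.87 (SE 0.21, unadjusted p = 0.00459, adjusted p = 0.158 by limma).

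HOX22, the relative of HOX24, had an intensity of 115 and 187 in MB, 173 and 233 in XQZ-A/MB, 98.2 and 149.9 in D62-A/MB, and 85.8 and 184 in ZS97-A/MB. Only the arrays of XQZ-A/MB exceeded MB of the same number. D62-A/MB minus XQZ-A/MB was -0.73 (SE 0.18, adjusted p = 0.160). HOX24 did not share this order, since its XQZ-A/MB arrays lay below MB like those of the other CMS lines.

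For HOX9, given above, D62-A/MB minus XQZ-A/MB was 0.70 (SE 0.18, adjusted p = 0.176). HOX7 had an intensity of 46.2 and 38.7 in MB, 56.3 and 83.1 in XQZ-A/MB, 30.8 and 58.5 in D62-A/MB, and 42.4 and 52.5 in ZS97-A/MB. XQZ-A/MB was the highest line in each replicate number, while D62-A/MB was the lowest in replicate 1 and above ZS97-A/MB in replicate 2. The difference of D62-A/MB from XQZ-A/MB was -0.69 (SE 0.26, adjusted p = 0.315).

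**Figure D4:**
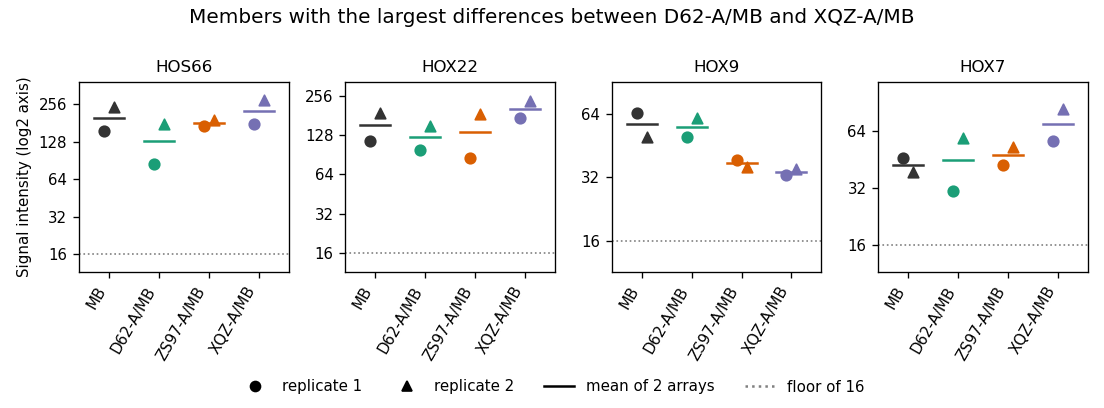
Signal intensity on a log2 axis in the 2 arrays (circle, replicate 1; triangle, replicate 2) of each line for the 4 members with the largest difference between D62-A/MB and XQZ-A/MB; bars are the mean of 2 arrays and the dotted line is the floor of 16. D62-A/MB lies below XQZ-A/MB of the same number for HOS66, HOX22 and HOX7 and above it for HOX9, and none of the differences passed the adjustment (adjusted p from 0.158 to 0.315).

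ZS97-A/MB had its greatest differences from the average of D62-A/MB and XQZ-A/MB in HOX2 (-0.57, SE 0.26, adjusted p = 0.259), HOX6 (0.42, SE 0.17, adjusted p = 0.215), HOX22 (-0.31, SE 0.16, adjusted p = 0.304) and ROC5 (0.26, SE 0.16, adjusted p = 0.408). HOX6 was the 1 member of 27 (3.7%) with an unadjusted p under 0.05, beside 21.6% of all tested probes. The ROC5 intensities were 10.7 and 42.5 in MB, 18.0 and 38.2 in XQZ-A/MB, 22.6 and 41.3 in D62-A/MB, and 19.8 and 58.2 in ZS97-A/MB, so ZS97-A/MB was highest in replicate 2 and not in replicate 1.

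Other homeobox families and genes of gibberellin, cytokinin and brassinosteroid metabolism were measured in the same comparison. Of 4 tested WOX genes and 6 tested zinc finger homeodomain genes 0 were called in the CMS average, with 0 and 1 at an unadjusted p under 0.05 and medians of -0.06 and -0.05. Among 2 tested gibberellin genes 0 were called. GA20OX3, which makes active gibberellin precursors, had a change of -0.33 (SE 0.17, adjusted p = 0.292), and CYP714D1 (EUI1), the gibberellin-inactivating gene that HOX12 is known to regulate, of -0.03 (SE 0.13, adjusted p = 0.922). Of 6 tested cytokinin activation genes 0 were called and 3 had an unadjusted p under 0.05, which 26.6% of all tested probes reached. Of these 6 genes 5 lay below MB, and LOGL1 lay above it with a change of 0.28 (SE 0.33, adjusted p = 0.662 by limma). LOG, which activates cytokinin in the shoot meristem, had a change of -0.88 (SE 0.19, adjusted p = 0.0335). Its relative LOGL7, with 6 of 8 arrays above 16, had a change of -0.77 (SE 0.14, adjusted p = 0.0195). LOG was at 210.0 and 274 in MB and between 88.9 and 201 in the CMS arrays, with all 6 below both MB arrays. The brassinosteroid-inactivating genes CYP734A2 and CYP734A4 had changes of -0.37 and -0.24 (adjusted p = 0.235 and 0.480).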

How the data were processed

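RNA of 4 lines was measured on 8 arrays. The authors computed the deposited signal intensities. The labels name MAS5 without a version for this step and Robust Multichip Analysis followed by a log transformation is the procedure in the study's methods, although the values are linear. The genome build behind the probes is not given in the sources used here. A further deposited table was equal apart from 98 added control probe sets. The authors' published fold changes were not used as results. They matched the arrays (tolerance 0.005 log2 units) in 588 of 620 rows with XQZ-A/MB and D62-A/MB exchanged and in 2 rows as labelled.

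Probes were tied to genes through RefSeq (15295 in 1 gene, 436 in several). Since each member had 1 probe, averaging the probes of a gene changes nothing. No sequences were at hand to check the classes.

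limma 3.58.1 (R 4.3.3) was fitted after a floor of 16 to 20416 probes (lowest mean 14.89) with line and replicate number as terms and with Benjamini-Hochberg adjustment. The residual degrees of freedom were 3 and the prior ones 3.96. A run on simulated data planted changes only in probes brighter than HOX14 and HOX24, so it does not show recovery at their intensities. The pairing comes from the data: the differences between replicates 2 and 1 correlated between lines, with r from 0.728 to 0.839 for all 6 pairs, and the labels do not say what a number shares. The number of arrays limits the precision. Tables and figures were made with Python 3.11.15 (pandas 2.3.3, matplotlib 3.10.9).

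Members, lists, markers and the main fit were chosen with earlier results of these data known. Members named in full are those called, the 12 largest changes in the CMS average, the brightest of each class, the 4 largest differences in each comparison between CMS lines, and HOX12, HOX14, HOX24, OSH1 and OSH15, and others are given by single values. BELL-type genes and TF1 had no probe that could be named.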

Additional observations from a re-analysis of the deposited data

Results flagged for a closer look

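With 2 arrays per line, no group was large enough to test for a single array far from the rest. In 8 comparisons between CMS lines, covering 6 members, both arrays of 1 line lay above and both arrays of the other below the MB array of their number. On the log2 scale, D62-A/MB minus XQZ-A/MB was -0.87 for HOS66 (adjusted p = 0.158 by limma), -0.73 for HOX22 (adjusted p = 0.160), 0.45 for ROC7 (adjusted p = 0.309) and 0.44 for HOX32 (adjusted p = 0.279), so none of these passed the threshold. D62-A/MB minus ZS97-A/MB was 0.365 for HOX32 and 0.346 for ROC1. ZS97-A/MB minus XQZ-A/MB was -0.68 for HOX22 and -0.22 for HOS59. The last 4 differences were not tested. For HOX32, HOX22 and ROC1, replicate 2 of ZS97-A/MB differed from MB by -0.03 in each.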

How the results depend on the processing

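In the CMS average the 2 called members became 0 without the replicate block, with all probes, with the probes above 16 on at least 1 array, with all probes and no block, and with the methods' t-test, and 1 (HOX14) after quantile normalization. Of all probes fitted, 367 were called in the main fit and 229 after quantile normalization. In the 5 settings without a called member the count was 0, 1, 0, 2 and 4 probes, in the order given. The loss of calls in those settings was therefore not confined to the members. An unadjusted p under 0.05 was reached by 2 of 27 members in limma without the block and by 3 in the methods' t-test, beside 7 in the main fit. The share of all tested probes in those 2 alternatives is not given here. With 1 array left out, both calls were kept without either array of D62-A/MB, and that of HOX14 alone without replicate 1 of MB. Both were lost without replicate 2 of MB, either array of XQZ-A/MB or either array of ZS97-A/MB, where few or no probes of the whole table were called. In ZS97-A/MB the 2 calls became 0 in the same 5 settings, after quantile normalization and with only the lines compared, and ranged from 0 to 2 with 1 array left out. In XQZ-A/MB the 1 call became 0 in the same 5 settings and with only the lines compared, 2 at an adjusted p under 0.05, and ranged from 0 to 1. For ZS97-A/MB and for XQZ-A/MB, 0 or 1 of all probes fitted were called in each of those 5 settings. In D62-A/MB the 0 calls became 1 (HOX14) with no floor and 2 at an adjusted p under 0.05. Between the CMS lines the count was 0 in every setting run. In the CMS average the change of HOX14 over all settings run stayed between -1.56 and -1.20 and that of HOX24 between -1.31 and -0.97. Small changes reversed with 1 array left out. HOX22 (-0.02) ranged from -0.10 to 0.07, above 0 without D62-A/MB replicate 2 (0.005), ZS97-A/MB replicate 1 or XQZ-A/MB replicate 2 (0.05). HOX7 (0.29) ranged from -0.14 without MB replicate 2 to 0.71, and ROC2 (0.12) from -0.055 without MB replicate 1 to 0.29. Further uncalled changes did not reverse but moved by over 1.5 times with 1 array left out, from -0.64 to -0.06 for HOX2, -0.83 to -0.23 for HOX17, -0.92 to -0.27 for HOX33, -0.70 to -0.23 for HOX9, -0.23 to -0.06 for HOX32, -0.43 to 0.0 for OSH3, -0.30 to -0.09 for HOS66, 0.06 to 0.41 for HOX6 and 0.08 to 0.32 for ROC5. Of the values of single genes under alternatives, 262 kept direction and side of the threshold and 22, all of HOX14 and HOX24, missed it. The cause was not tested.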
